A study of Homo sapiens with 3 samples.

Results

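The keratin gene family was examined in LS174T-tetON-NICD cells. LS174T is an established human colon carcinoma line, and this derivative makes the intracellular domain of Notch (NICD), the receptor's active form, when given doxycycline. The family was chosen with earlier results of these data known. Its members were taken by name, as every probe whose current gene symbol is KRT followed directly by a number. Keratin-associated KRTAP genes were left out. This gave 54 keratin genes with 65 probes, of 17559 named genes on the arrays. KRT8, the usual partner of KRT18, is not analysed here. The rule also takes 1 probe of KRT10-AS1, an antisense RNA gene and not a keratin, which is described apart.

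Treatment lasted 24 h and was TNF alpha (TNF) at 50 ng/ml, doxycycline at 100 ng/ml, or the 2 together, and each treated culture was set against untreated cells of the same line on 1 two-colour array. Controls and treated cells thus all carry the inducible NICD construct. The untreated RNA was in Cy5 and the treated RNA in Cy3 on all 3 arrays, with no dye swap. No array held doxycycline-treated cells without the construct, so NICD and doxycycline itself cannot be told apart. With 1 culture and 1 array per condition there is no replicate error, no p-value is given, and every difference compares single arrays.

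Keratins are the intermediate filament proteins of epithelial cells. A filament is built from pairs of 1 acidic type I and 1 basic type II keratin, and most type I genes lie in a cluster on chromosome 17 while the type II genes lie in a cluster on chromosome 12, where the type I gene KRT18 lies too. Simple epithelia such as the intestinal lining are known for KRT8, KRT18, KRT19 and KRT20, stratified epithelia such as epidermis and oesophagus for pairs such as KRT5 with KRT14, KRT1 with KRT10 and KRT4 with KRT13, and wounded or activated epidermis for KRT6, KRT16 and KRT17. The remaining keratins are mostly those of hair and the hair follicle.

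The arrays allowed a ratio for 44 of the 54 keratin genes, among 14529 genes in all, namely those with a probe above the blank spots in at least 1 channel of every array. All 20 stratified keratins and the 4 simple keratins measured were kept, with 19 of 26 hair keratins and 1 of the 4 others (KRT80). The 10 genes not kept were KRT23, KRT24, KRT222 and the hair follicle keratins KRT25, KRT26, KRT27, KRT28, KRT32, KRT34 and KRT39. Their highest signal in any channel lay between 0.193 and 8.15 over the blanks, and 8 of them were above background in no channel. Signals below are spot intensities above the mean of the blank spots, and log2 values are normalised ratios of treated over control.

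TNF-treated RNA gave a dimmer channel than the other treated RNAs, with a median signal of 18.6, where the doxycycline array had 55.7 and the array with both agents (the combined array) 61.7. Between probes of the same gene the log2 ratios had an SD of 0.74 with TNF, 0.24 with doxycycline and 0.30 with both (1747 genes). The control channels, which all hold untreated cells, differed between arrays with an SD of 0.08 to 0.16 over all genes. Over the 44 keratins this SD was 0.08 to 0.20. These values include the offset of 50 added to every signal, which damps differences between dim spots. Without it the control signal of KRT13 differed by 2.34 times between the TNF and combined arrays. Each treatment was therefore also read a second way, TNF as the combined minus the doxycycline array and doxycycline as the combined minus the TNF array. These second readings share no array with the first.

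The colon label was checked on 9 measured colon epithelium markers, all above background in every channel, with EPCAM, an epithelial adhesion molecule, at control signals of 9168, 8422 and 8689 (3 signals or ratios in a row are given for TNF, doxycycline and both, in this order). TP63, the master transcription factor of stratified epithelia, was above background in no channel, and DSG3, a desmosomal cadherin of stratified epithelia, in 1 of 6. Of 7 fibroblast genes, 4 were kept, and COL1A1 and COL1A2 were above background in no channel. Vimentin (VIM), the mesenchymal intermediate filament, had control signals of 3.87 to 5.39.

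With doxycycline, 3 of the 44 keratins were at least 2-fold higher than control and 0 lower, where 1.18% of all genes were higher and 0.406% lower. These were KRT13, KRT17 and KRT19. In such bulk RNA, fewer cells making a transcript and less of it per cell cannot be told apart. With both treatments 6 were higher (KRT13, KRT17, KRT19, KRT5, KRT6A and KRT6B) and 1 lower (KRT80), where 3.17% of all genes were higher and 2.13% lower. With TNF alone 1 was higher (KRT6B) and 1 lower (KRT19), against 1.80% and 12.3% of all genes. In all, 7 keratins passed 2-fold on any array. On the doxycycline array the other 37 lay between -0.40 and 0.60 on the log2 scale, and on the combined array between -0.29 and 1.00, where KRT6C stood just short of 2-fold.

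**Figure D1:**
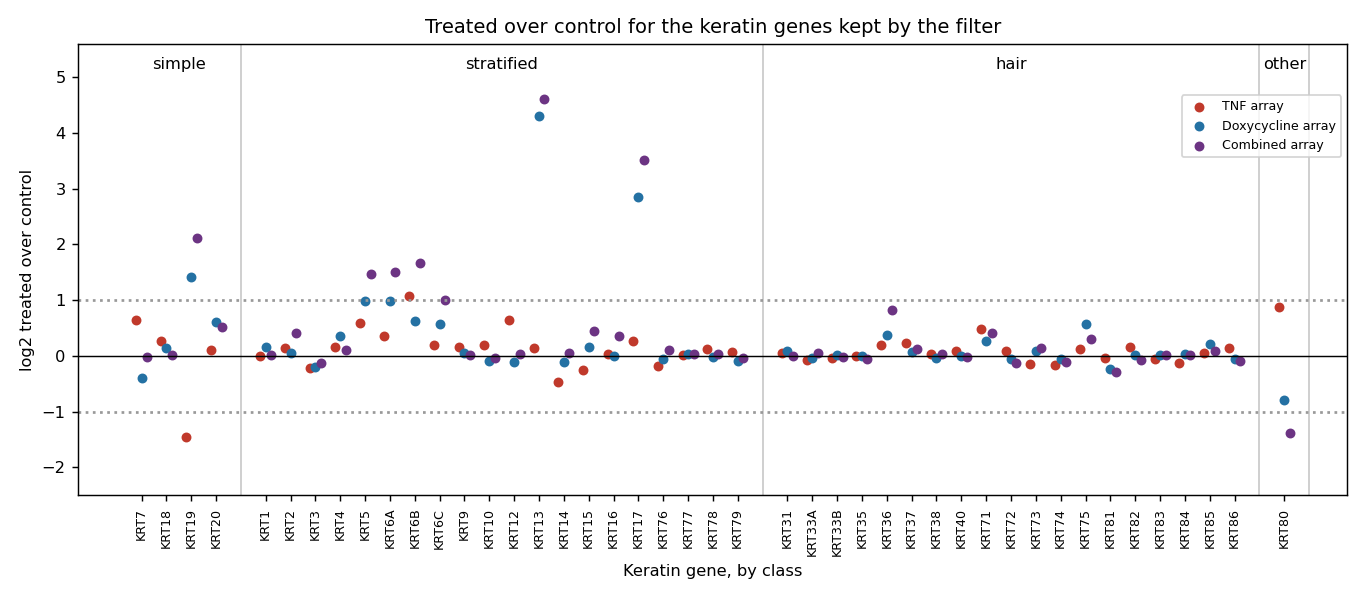
Log2 ratio of treated over control (vertical axis) for each of the 44 keratin genes kept by the filter, grouped as simple, stratified, hair and other keratins, with 1 point per array and dotted lines at 2-fold. Most genes lie near 0 on all 3 arrays, while KRT13 and KRT17 reach 4.31 and 2.85 with doxycycline and 4.61 and 3.51 with both treatments.

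Of the 20 stratified keratins, 2 (10%) were at least 2-fold higher with doxycycline, where 1.18% of all genes were, and 5 (25%) with both treatments, where 3.17% of all genes were. With both treatments 17 of 20 lay above 0. Their median was 0.05 with doxycycline and 0.11 with both treatments, while the median of all genes was 0.01 and 0.00. Of the 4 simple keratins, 1 (25%) was at least 2-fold higher on each of these arrays, and their medians were 0.37 and 0.27. The stratified median thus lay 0.32 below the simple one with doxycycline and 0.16 below with both treatments, and 0.05 below with TNF. The other 15 of the 20 stratified keratins stayed under 2-fold on every array.

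Among the simple keratins, KRT18, the main type I keratin of simple epithelia, had control signals of 17629, 17863 and 17153, and treated signals of 38979, 36791 and 30663. Over all probes the median Cy3 signal was 18.6 against 35.6 in Cy5 on the TNF array. On the doxycycline and combined arrays it was 55.7 against 30.7 and 61.7 against 30.6. After normalisation KRT18 stood at 0.27, 0.13 and 0.02. It was thus the member closest to control among the simple keratins on the doxycycline array, while the authors' processed values gave 1.23 with TNF, above 2-fold.

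KRT19, a type I keratin of simple and glandular epithelia, had control signals of 1934, 1844 and 1573 and treated signals of 1038, 9323 and 12373. It stood at -1.45 with TNF (2.73-fold lower), 1.42 with doxycycline (2.67-fold higher) and 2.12 with both (4.35-fold higher). The treated channel was thus dimmer than control on the TNF array and brighter on both arrays with doxycycline. TNF on top of doxycycline gave 0.70, the opposite direction to TNF alone. The TNF value was -0.89 with median centring and -0.81 in the authors' processed values, both short of 2-fold.

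KRT7, a type II keratin of glandular epithelia that is usually low in colon, had control signals of 234, 181 and 188 and treated signals of 460, 223 and 331. It stood at 0.65, -0.40 and -0.01, so that TNF and doxycycline lay on opposite sides of control and the combination between them. KRT20, the keratin of differentiated intestinal cells, had control signals of 21.8, 17.5 and 18.3 and treated signals of 20.1, 84.3 and 83.7. It stood at 0.10, 0.60 and 0.52, under 2-fold on every array, with the same treated signal on both arrays that held doxycycline.

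KRT13, the type I keratin of non-cornifying stratified epithelia such as oesophagus, had the highest ratio of the family. Its control signals were 16.5, 29.6 and 38.7 and its treated signals 18.1, 2755 and 3759. Its log2 ratios were 0.14, 4.31 (19.9-fold) and 4.61 (24.5-fold), and doxycycline on top of TNF gave 4.47 (22.2-fold). It was thus near control with TNF alone and far above it on both arrays with doxycycline. KRT4, the type II keratin that pairs with KRT13, had treated signals of 49.7, 111 and 87.6 over controls of 51.8, 42.0 and 41.7, and stood at 0.16, 0.36 and 0.11. The high ratio of KRT13 was therefore not accompanied by a like ratio of its usual partner.

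KRT17, a type I keratin of activated and basal-like epithelial cells, had control signals of 75.4, 104 and 124 and treated signals of 83.0, 1912 and 3410. It stood at 0.27, 2.85 (7.22-fold) and 3.51 (11.4-fold), with 3.24 for doxycycline on top of TNF and 0.66 for TNF on top of doxycycline. As with KRT13, only the arrays with doxycycline were far from control. KRT16, which is co-induced with KRT17 in wounded epidermis, stood at 0.03, 0.00 and 0.36, with treated signals of 73.3, 141 and 198 over controls of 88.2, 82.8 and 77.0.

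For KRT13 and KRT17 the control signal itself was higher where the treated signal was high. The control signal of the combined array was 2.34 times that of the TNF array for KRT13 and 1.64 times for KRT17. For the other 32 kept keratin probes with a control signal over 10 it was 0.65 to 1.05 times, with a median of 0.84. A higher control signal makes a ratio smaller, and its part in these ratios was not tested.

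**Figure D2:**
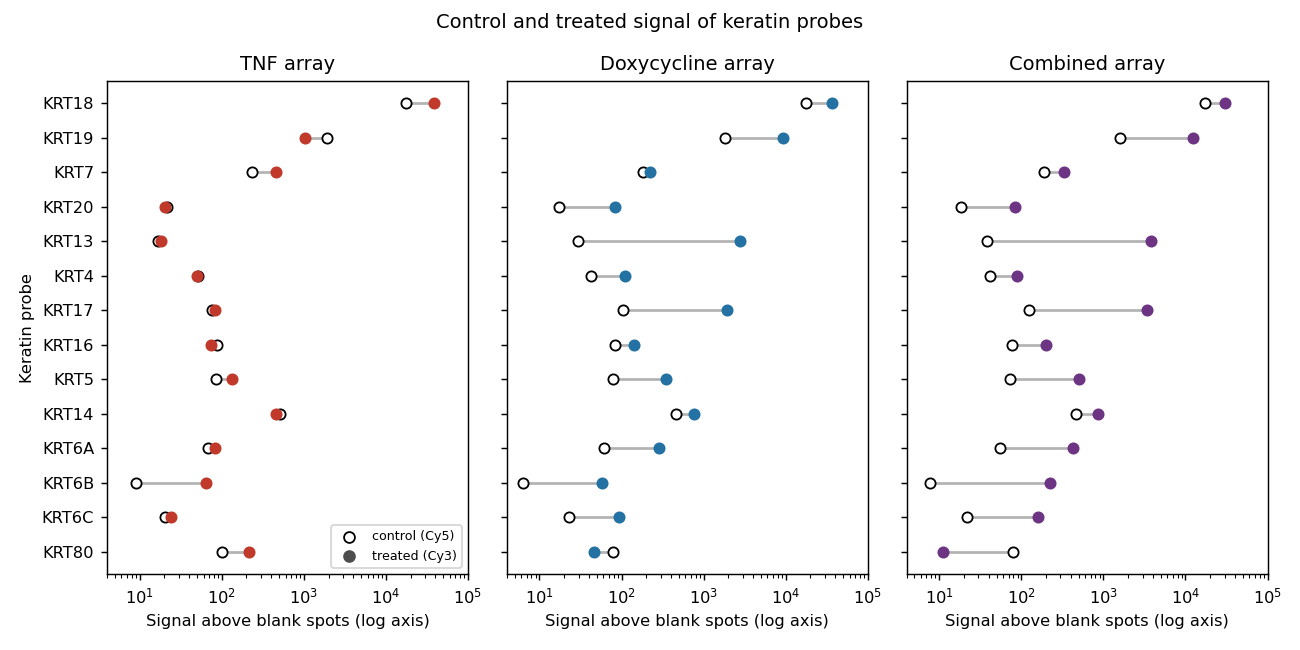
Signal above the blank spots (horizontal log axis) of the control channel (open points) and the treated channel (filled points) for 14 keratin probes on each array. Signals of 1 probe can be compared between channels and arrays but not with those of another probe. These signals are not normalised. The median Cy3 signal over all probes was above that of Cy5 on the doxycycline and combined arrays and below it on the TNF array. KRT13 goes from 29.6 to 2755 on the doxycycline array, while KRT80 goes from 79.7 to 11.0 on the combined array.

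Of the type II keratins KRT5, KRT6A, KRT6B and KRT6C, 0 passed 2-fold with doxycycline, and the first 3 passed it with both treatments. KRT5, the type II keratin of basal cells in stratified epithelia, had control signals of 85.0, 79.0 and 73.5 and treated signals of 133, 347 and 507. It stood at 0.59, 0.98 and 1.48 (2.78-fold). Its basal cell partner KRT14 stood at -0.48, -0.11 and 0.04, with treated signals of 456, 767 and 851 over controls of 515, 455 and 463. KRT5 was thus higher on all 3 arrays and KRT14 on none beyond 0.04.

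KRT6A, a keratin of wounded epidermis and of the hair follicle, had control signals of 68.6, 60.9 and 55.8 and treated signals of 83.5, 282 and 432. It stood at 0.36, 0.98 and 1.51 (2.85-fold). On the doxycycline array KRT5 and KRT6A lay just short of 2-fold, and both passed it with a smaller offset of 16 (1.16 and 1.20) or with median centring (1.26 and 1.22).

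KRT6B, a close relative of KRT6A, had control signals of 8.93, 6.23 and 7.75, near the background limit of 3.17 to 3.33, and treated signals of 65.1, 58.3 and 222. It stood at 1.08, 0.62 and 1.66 (3.16-fold), and at 1.04 for TNF on top of doxycycline. It was the one keratin at least 2-fold higher in both readings of TNF. With so dim a control the size depended on the background, and the authors' processed values gave 2.95, 2.37 and 3.94 while the local background of the scanner gave 0.29, 0.22 and 0.79, short of 2-fold on all arrays. Median centring gave 0.92 with TNF.

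KRT6C, the third KRT6 gene, had control signals of 20.5, 22.7 and 21.5 and treated signals of 23.9, 94.5 and 158, and stood at 0.20, 0.58 and 1.00. The KRT6 genes are nearly identical in sequence, as are KRT14, KRT16 and KRT17 in part. Probe sequences are not analysed here, so the signal of 1 copy cannot be told apart from that of another.

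The remaining stratified keratins stayed under 2-fold on every array. KRT15, a basal cell keratin with 2 probes, stood at -0.26, 0.16 and 0.44. Its probes differed on the TNF array (-0.86 and 0.35) and less so on the combined array (0.26 and 0.62). The brighter had control signals of 864, 748 and 754 and treated signals of 632, 1333 and 1613, the dimmer 16.7, 14.4 and 14.1 and 28.0, 54.9 and 83.5. KRT2 of the upper epidermis reached 0.41 with both treatments, where its treated signal was 53.9 against 14.5 and 21.2 on the other arrays. KRT1 and KRT10, the pair of suprabasal epidermis, lay at 0.02 and -0.04 with both treatments, and KRT3 of the cornea at -0.12. KRT3 had control signals of 216, 199 and 186 and treated signals of 177, 295 and 298, and stayed below control on all 3 arrays after normalisation. KRT12, which pairs with KRT3 in the cornea, had control signals of 1273, 1130 and 957 and treated signals of 3190, 1937 and 1732, and stood at 0.65, -0.12 and 0.03. KRT9, KRT76, KRT77, KRT78 and KRT79 lay between -0.18 and 0.16 on all arrays.

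Of the hair and inner root sheath keratins, 0 of 19 passed 2-fold on any array by their kept probes, with medians of 0.05, 0.02 and 0.02. Over all genes 1.80%, 1.18% and 3.17% were at least 2-fold higher and 12.3%, 0.406% and 2.13% lower. KRT36, a type I hair keratin also known from the tongue, stood furthest from control with both treatments at 0.83, with treated signals of 20.5, 48.4 and 97.6 over controls of 16.2, 11.4 and 10.6. It passed 2-fold with both treatments at 1.43 when a second probe, dropped as dim on the TNF array, was averaged in, and at 2.30 in the authors' processed values, which gave 1.23 with doxycycline. KRT75, a hair follicle keratin, had control signals of 199, 175 and 174 and treated signals of 226, 502 and 397, and stood at 0.12, 0.57 and 0.30, and KRT71 of the inner root sheath at 0.48, 0.27 and 0.41. KRT81, a type II hair keratin, stood at -0.03, -0.23 and -0.29. KRT31, KRT33A, KRT33B, KRT35, KRT37, KRT38, KRT40, KRT72, KRT73, KRT74, KRT82, KRT83, KRT84, KRT85 and KRT86 lay between -0.17 and 0.22 on all arrays. On the TNF array the treated spots of KRT33A, KRT73 and KRT84 were not above background.

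KRT80, a type II keratin found in many epithelia, was the one member at least 2-fold lower with both treatments. Its control signals were 100.4, 78.4 and 79.7 and its treated signals 215, 46.2 and 11.0. It stood at 0.88 with TNF, -0.79 with doxycycline and -1.39 with both (2.63-fold lower). The treated signal was thus above control with TNF alone and below it on both arrays with doxycycline. A second KRT80 probe, with signals of 1.34 to 8.94 in all channels, was not kept, and averaging it in gave -0.72 with both treatments, short of 2-fold. KRT10-AS1 stood at -0.34, 0.09 and 0.11.

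The combination was also read against each single treatment. On top of doxycycline, TNF left 1 keratin at least 2-fold higher (KRT6B) and 0 lower, against 1.18% and 0.909% of all genes. The keratins from 0.30 up to 2-fold were KRT19 at 0.70, KRT17 at 0.66, KRT6A at 0.53, KRT5 at 0.49, KRT36 at 0.45, KRT6C at 0.42, KRT7 at 0.39, KRT16 at 0.36, KRT2 at 0.36 and KRT13 at 0.30. KRT80 stood at -0.60. On top of TNF, doxycycline left 4 higher (KRT13, KRT19, KRT17 and KRT6A) and 1 lower (KRT80 at -2.28), against 14.0% and 3.29% of all genes. This reading includes the TNF array, and for KRT19 (3.57) it includes the -1.45 of TNF alone.

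Set against the sum of both single log2 ratios, 1 keratin was at least 2-fold above it and 1 at least 2-fold below, against 14.0% and 5.11% of all genes. KRT19 stood 2.15 above the sum and KRT80 stood below it, at -1.48, and both values turn on the TNF array. For KRT13, KRT17, KRT5, KRT6A, KRT6B and KRT6C the combined ratio lay within 0.4 of the sum, at 0.16, 0.39, -0.09, 0.17, -0.04 and 0.22. This did not hold for KRT6B in the authors' processed values (-1.38) or with an offset of 16 (-0.46), nor for KRT6C in the authors' values (0.46). With the local background and with median centring it did not hold for KRT17 (0.74 and 0.57) and KRT6A (0.51 and 0.43).

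The ratios were also read in the order of the genes. Along the chromosome 12 cluster (27 genes, 26 kept), KRT75, KRT6B, KRT6C, KRT6A, KRT5 and KRT71 follow each other, and their ratios with doxycycline were 0.57, 0.62, 0.58, 0.98, 0.98 and 0.27, all short of 2-fold. Of the 20 other kept genes of the cluster, the highest on that array was KRT4 at 0.36. At the start of the same cluster KRT80 and KRT7 are neighbours. Both lay above control with TNF (0.88 and 0.65) and below it with doxycycline (-0.79 and -0.40).

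Along the chromosome 17 cluster (28 genes, 18 kept), KRT36, KRT13, KRT15 and KRT19 follow each other, with combined ratios of 0.83, 4.61, 0.44 and 2.12. After them come KRT9, KRT14 and KRT16 at 0.01, 0.04 and 0.36, and then KRT17 at 3.51 at the end of the cluster. KRT17 was thus separated from the other high genes by 3 genes with small ratios. These runs are described as they stand and were not tested.

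**Figure D3:**
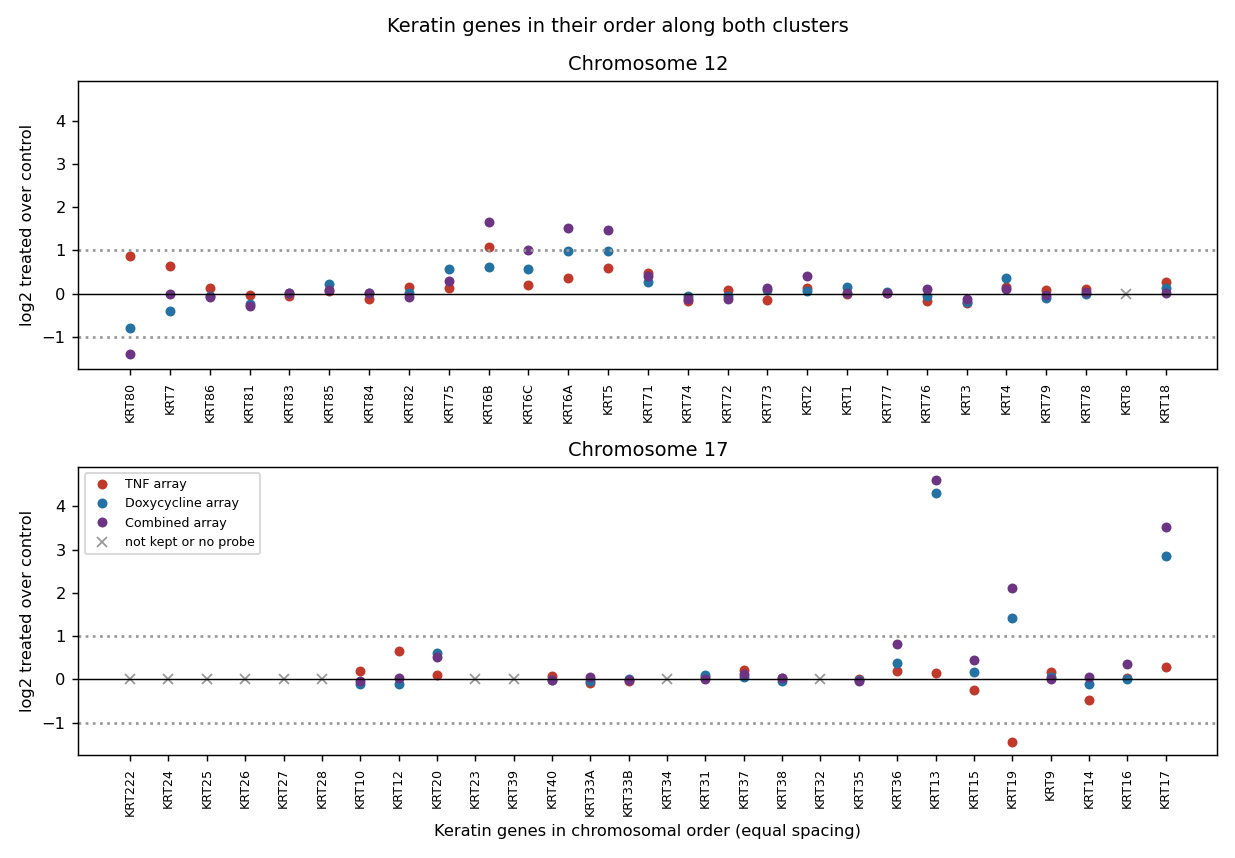
Log2 ratio of treated over control (vertical axis) for the keratin genes in their chromosomal order at equal spacing, for the clusters on chromosome 12 (top) and chromosome 17 (bottom). Crosses at 0 mark genes with no ratio, and dotted lines mark 2-fold. The KRT6 genes and KRT5 stand together on chromosome 12, while KRT13, KRT19 and KRT17 stand out near the end of the chromosome 17 cluster.

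Promoter sequence was at hand from RefSeq (GRCh38.p14) for 34 of the keratin genes, from 250 bases before to 50 after the start of the gene. Of the 7 keratins past 2-fold on any array, 1 (KRT5) is among these 34, and KRT13, KRT17, KRT19, KRT6A, KRT6B and KRT80 have promoters not analysed here. KRT5 is shown with KRT36, the neighbour of KRT13, and KRT71, the neighbour of KRT5, because they lie in both runs of neighbours. Capitals mark TGGGAA, the core letters bound by RBPJ, the DNA-binding partner of NICD, and TATAAA, the TATA box, each on either strand. The windows are chr17:41489861-41490160, chr12:52520345-52520644 and chr12:52553096-52553395, all on the minus strand and written from 5′ to 3′ of the gene.
KRT36: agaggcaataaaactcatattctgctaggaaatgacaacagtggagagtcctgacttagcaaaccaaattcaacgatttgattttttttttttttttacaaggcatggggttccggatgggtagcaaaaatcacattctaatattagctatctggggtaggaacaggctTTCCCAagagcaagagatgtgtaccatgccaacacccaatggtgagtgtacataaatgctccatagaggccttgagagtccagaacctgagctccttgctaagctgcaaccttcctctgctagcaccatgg
KRT5: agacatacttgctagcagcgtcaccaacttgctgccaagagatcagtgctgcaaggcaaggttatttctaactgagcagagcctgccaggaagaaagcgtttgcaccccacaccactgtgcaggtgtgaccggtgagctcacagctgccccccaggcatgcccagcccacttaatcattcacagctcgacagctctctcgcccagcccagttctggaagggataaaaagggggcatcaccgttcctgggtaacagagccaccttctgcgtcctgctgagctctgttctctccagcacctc
KRT71: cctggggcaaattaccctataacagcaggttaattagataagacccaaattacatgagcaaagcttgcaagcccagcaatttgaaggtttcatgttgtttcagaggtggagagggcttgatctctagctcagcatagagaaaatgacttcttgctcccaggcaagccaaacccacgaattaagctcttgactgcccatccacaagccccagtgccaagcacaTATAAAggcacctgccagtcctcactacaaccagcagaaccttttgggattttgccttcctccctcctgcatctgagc

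KRT36 held 1 TGGGAA, read on the opposite strand and beginning 81 bases before the start, and KRT5 held none. The letters were found in 8 of 34 keratin promoters (23.5%), near the 24.0% of all 35116 promoters. The 34 are mostly keratins that stayed under 2-fold or were not kept, and a match describes the letters, not a site. KRT71 held TATAAA 28 bases before its start. TATAAA was found in 21 of 34 keratin promoters (61.8%) against 11.5% of all promoters, among them KRT10, KRT3, KRT31 and KRT76, which stood near control on these arrays. TGANTCA, the AP-1 site, was found in 0 of 34, against 7.71% of all promoters. No match says only that these letters are not in this window.

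Genes that anchor keratins to cell contacts were read beside the family. Of 12 kept linker and desmosome plaque genes, 2 were at least 2-fold higher with both treatments and 0 lower, where 3.17% and 2.13% of all genes were, and 0 passed 2-fold with doxycycline in either direction, where 1.18% were higher and 0.406% lower. DSP, desmoplakin, which ties keratin filaments to desmosomes, stood at 0.69 with doxycycline and 2.08 with both, with treated signals of 246 and 765 over controls of 71.9 and 66.5. JUP, plakoglobin, stood at 0.47 and 1.03, and DSC2, a desmosomal cadherin, at 0.18 and 0.94. PKP3, plakophilin 3, stood at -0.26 and -0.67. The list median was 0.08 with doxycycline and -0.00 with both. With TNF alone 5 of 12 were lower and 0 higher, where 12.3% of all genes were lower.

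Genes of the cornified envelope, the protein shell of epidermal cells, were mostly near control. Of 14 kept, 1 was at least 2-fold higher with doxycycline, where 1.18% of all genes were, and 1 with both treatments, where 3.17% were. None of the 14 was 2-fold lower on these arrays, and the medians were -0.06 and -0.05. The one high gene was EMP1, a membrane protein, at 2.17 and 4.10, with treated signals of 654 and 2954 over controls of 46.5 and 50.5. TGM3, a transglutaminase, reached 0.43 with both, while SPRR2D stood at -0.29 and KRTDAP at -0.22. With TNF alone 0 of 14 passed 2-fold in either direction, where 1.80% of all genes were higher and 12.3% lower.

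Among squamous epithelium regulators and basal markers, 0 of 10 kept genes passed 2-fold with doxycycline (1.18% of all genes higher, 0.406% lower) or with both treatments (3.17% and 2.13%), with medians of 0.06 and 0.04. PERP, a desmosomal protein and p63 target, reached 0.83 with both, PAX9 0.39 and GRHL3 0.29, and ITGA6, a hemidesmosomal integrin, stood at -0.35. With TNF alone 2 of 10 were lower, where 12.3% of all genes were. Over all 12 listed genes measured, the summed treated signal was 593, 2716 and 4268 against control sums of 2216, 1839 and 2016. These sums are not normalised between the dyes. Over all probes the median signal was 18.6, 55.7 and 61.7 in Cy3 and 35.6, 30.7 and 30.6 in Cy5. PERP (2280) and ITGA6 (1107) had the highest treated signals of the kept genes on the combined array. The part of the summed signal in the keratin ratios was not tested. The 4 fibroblast genes kept had 0 past 2-fold on any array. With TNF alone 1.80% of all genes were higher and 12.3% lower, and the shares on the other arrays were those given above.

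Other intermediate filament genes, apart from lamins, were mostly near control where doxycycline was present. Of 15 kept, 0 passed 2-fold with doxycycline or with both treatments, with medians of -0.03 and -0.02. Over all genes 1.18% were higher and 0.406% lower with doxycycline, and 3.17% and 2.13% with both. With doxycycline LMNB1 (0.85) and LMNB2 (-0.79) stood furthest from 0. The furthest with both were the nuclear lamins LMNB2 (-0.96) and LMNA (0.88), then BFSP1 (0.42), a lens filament protein, and SYNM (0.32), synemin. On the TNF array 3 of 15, all lamins, were lower, where 12.3% of all genes were. Among the 9 colon epithelium markers, 1 was at least 2-fold higher with doxycycline (FABP1 at 1.07), where 1.18% of all genes were, and 0 with both, where 3.17% were. None of the 9 was lower on these arrays, and 4 were lower with TNF alone, against 12.3% of all genes.

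The ratios of the 7 keratins past 2-fold were recomputed under 10 other settings, of which 5 leave the values of KRT13, KRT17 and KRT19 as they are. KRT13, KRT17 and KRT19 were at least 2-fold higher in each of them on both arrays with doxycycline. KRT13 ranged from 3.66 with the local background to 5.68 in the authors' processed values on the doxycycline array, KRT17 from 2.39 to 3.34, and KRT19 from 1.29 with the local background to 1.96 with median centring. KRT80 with both treatments ranged from -0.31 with the local background to -2.20 with an offset of 16. In this range the authors' value (-1.97) averages in the second KRT80 probe, and by the kept probe alone it was -3.76.

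**Figure D4:**
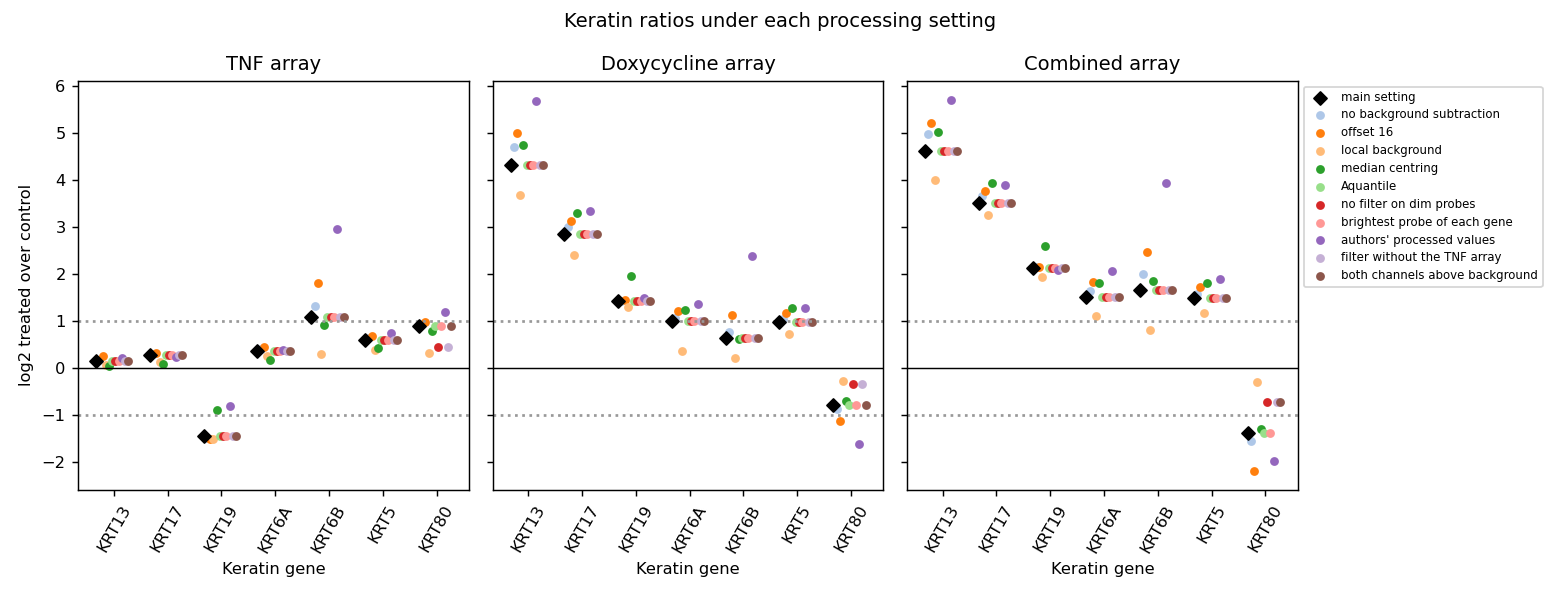
Log2 ratio of treated over control (vertical axis) for the 7 keratins at least 2-fold off control on any array, under the main setting (black diamonds) and 10 others (coloured points). KRT13, KRT17 and KRT19 stay above the 2-fold line under all settings on the doxycycline and combined arrays, whereas KRT6B and KRT80 spread across it on the combined array.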

How the data were processed

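Total RNA was amplified and labelled by an amino allyl method for hybridisation on oligonucleotide arrays in 2 colours, per the labels. The scanner files deposited by the authors hold the median intensity of each spot on a linear scale, which combines scans at several gains, per the file headers. The series table holds log2 values that the authors deposited, and all 18330, 19535 and 19605 values (TNF, doxycycline, both) were matched within 0.001 by log2 of Cy3 over Cy5 above the blank spots, centred on the array median, so that the direction is treated over control.

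Here the 5%-trimmed mean of 2680 blanks was the background, since the deposited local background followed the spot signal (r of 0.917 to 0.960 over probes). Signals were corrected with normexp (offset 50) and normalised by loess within each array (limma 3.58.1, R 4.3.3), and other steps used Python 3.11.15. The 95th percentile of the blanks was the limit of detection. A probe was kept if, on each array, Cy3 or Cy5 or both passed that limit, 3 probes marked as bad were dropped, and probes of 1 gene were averaged (16336 probes, 14529 genes). Of 20236 annotated symbols, 17238 were current, 2899 were updated and 99 kept unmatched. The normalisation was tested on simulated arrays. These had a treated channel brighter than control and as many probes raised as lowered, unlike the TNF array. Only probes with a bright control were changed, and by smaller folds than that of KRT13. Dim controls such as those of KRT13 and KRT6B were thus not tested.

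Genes at least 2-fold off were counted. No test was possible, and precision is limited by having 1 array per condition. Every kept keratin was named, with all signals for those past 2-fold or among the 8 brightest controls, and up to 4 members of each accompanying list, those furthest from 0 on the combined array. EPCAM, VIM, TP63, DSG3, COL1A1, COL1A2, FABP1 and LMNB1 were named outside this rule. The members and lists were chosen with earlier results of these data known. Other settings were the offset, background, normalisation, filter, probe summary and the authors' values.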

Additional observations from a re-analysis of the deposited data

Results flagged for a closer look

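KRT19 and KRT80 lay on opposite sides in both readings of TNF, each by at least 1.5-fold. KRT19 stood at -1.45 with TNF alone and at 0.70 with TNF on top of doxycycline. KRT80 stood at 0.88 and -0.60. Its second value was under 1.5-fold with the local background (-0.02) and with no filter on dim probes (-0.37). In the authors' processed values it was -0.35, but these average in the second KRT80 probe on the combined array only. By the kept probe alone they gave -1.62 with doxycycline and -3.76 with both. The first value of KRT80 was 0.31 with the local background and 0.44 with no filter. On the TNF array 12.3% of all genes were at least 2-fold lower. Against the sum of both single log2 ratios, 14.0% of all genes stood at least 2-fold above. The KRT19 pattern was also seen in the accompanying lists, in PERP (-2.91 and 1.49) and DSP (-1.06 and 1.39). It was not seen in ITGA6 (-2.92 and -0.09). The share of all genes on opposite sides in both readings is not given here. Each reading rests on single arrays and the difference was not tested.

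A KRT36 probe that was left out, because it was above background in no channel of the TNF array, was bright in the treated channel of both arrays with doxycycline. Its treated signal was 87.0 with doxycycline and 263 with both, while its control signals of 2.10 and 0.518 were not above background. KRT36 was thus at least 2.03-fold and at least 4.11-fold higher at this probe, the treated level being set against the control's own level, which lay above the lowest level counted as signal. The kept KRT36 probe stood at 0.37 and 0.83 on these arrays. Averaged over both probes the gene stood at 0.70 and 1.43.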

How the results depend on the processing

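No paired analysis was possible because there was 1 sample per group, and leaving out a replicate was not possible for the same reason. Counts of keratins at least 2-fold off control moved with the setting, and the cause was not tested. Higher with TNF was 1 keratin in the main setting, against 0 with the local background, 2 with median centring and 5 in the authors' processed values, and lower was 1, against 0 with median centring and 0 in the authors' values. Higher with doxycycline were 3, against 5 with no background subtraction, 6 with offset 16, 5 with median centring and 11 in the authors' values, and lower were 0, against 1 with offset 16 and 1 in the authors' values. Higher with both were 6, against 10 in the authors' values. Lower with both was 1, against 0 with the local background, with no filter on dim probes, with both channels above background, and with the filter taken over the doxycycline and combined arrays only. The last setting was chosen after seeing the data. The share of all genes moved with the setting too. In the authors' values 5 of 41 keratins were higher with TNF, where 13.9% of all genes were (1.80% in the main setting). Lower with TNF were 0 of 41, where 22% of all genes were. With doxycycline 11 of 45 were higher there (3.67% of all genes) and with both 10 of 44 (8.27%). With median centring 5.24% of all genes were higher with TNF and 3.72% with doxycycline.

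For TNF on top of doxycycline, higher was 1, against 3 in the authors' values and 0 with the local background, and lower was 0, against 1 with offset 16 and 1 in the authors' values. For doxycycline on top of TNF, higher were 4, against 10 in the authors' values, and lower was 1, against 5 in the authors' values and 0 with the local background. Above the sum was 1, against 2 with the brightest probe of each gene and 2 in the authors' values, and below it 1, against 3 with median centring, 5 in the authors' values, and 0 with the local background, with no filter and with the filter without the TNF array. In the authors' values 3.95% of all genes were higher and 3.43% lower for TNF on top of doxycycline. For doxycycline on top of TNF these shares were 25% and 15%, and 25.2% stood above the sum and 19.4% below it. The stratified minus the simple median with doxycycline was -0.32, against -0.62 in the authors' values.

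Of 420 values of the 7 keratins past 2-fold, 197 were identical to the main setting, mostly because Aquantile, the probe summary and the filters leave a ratio with 1 kept probe as it is. Of the other 223, 161 moved by less than the SD between probes of 1 gene and 62 by more, and no value past 2-fold changed direction. Median centring moved the median of all genes from 0.01 to 0.14 with doxycycline. Control signals near the blanks limit the ratios of dim keratins such as KRT6B and KRT1.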

Other observations

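In the authors' deposited table, which subtracts the blanks without an offset, dim keratins stood further from control than in the main setting. On the doxycycline array KRT1 stood at 1.48, KRT20 at 1.41, KRT85 at 1.28, KRT36 at 1.23 and KRT6C at 1.20 there, against 0.17, 0.60, 0.22, 0.37 and 0.58 with the offset of 50. The control signals of these probes were 3.48, 17.5, 5.70, 11.4 and 22.7. On the combined array KRT2 stood at 1.40 in that table, against 0.41.

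KRT18 stood at 1.23 on the TNF array in the authors' deposited table, against 0.27 after loess, and KRT12 at 1.41, against 0.65.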
